A study of Mus musculus with 5 samples.

Results

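The genes described are 43 non-collagen proteins of the interstitial matrix, the material between the cells of a tissue, and they were taken by symbol from a table of 23997 rows. All 43 had a row. They were compared between 2 libraries labelled as Pkd1 knockout (knockout 0 and 1) and 3 libraries labelled as uninduced control (control 0, 1 and 2). Every library was made from RNA of whole mouse kidney at 8 weeks of age. Pkd1 encodes polycystin-1, a large membrane receptor mutated in polycystic kidney disease, and the series dealt with metalloproteinases, the basement membrane of tubules and their widening into cysts. Sample titles use the name SKO for the mutants and the design text uses PkdTKO, with neither name explained. Not given in the sources used here were the strain, the sex, the transgenes and the cells in which they act, the means of induction, and whether the controls carry the same alleles. Nothing says that the libraries came from separate animals, so the p-values take in only the spread among these 5 samples, and that spread may be technical.

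Interstitial matrix is secreted mainly by fibroblasts and related stromal cells, and in kidney it is sparse between healthy tubules and accumulates in fibrosis. Adhesive glycoproteins such as fibronectin tie cells to fibres. Elastic fibres consist of an elastin core on a scaffold of fibrillin microfibrils, which also hold latent TGF-beta, a growth factor that raises matrix production. Small leucine-rich proteoglycans bind collagen and steer fibril growth, and thrombospondins, SPARC and their relatives tune how cells attach to the matrix.

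Promoter sequences were looked up for the members, and 28 of the 43 had an entry in RefSeq's promoter table for GRCm38.p6. The 250 bases before the RefSeq start are shown for 4 genes that the results turn on. They are Prelp (chr1:133921402-133921651, minus strand), which rose in the knockouts, Thbs4 (chr13:92794819-92795068, minus strand), a low gene at 17.4 and 11.7 times the control mean in the knockout libraries, Tgfbi (chr13:56609336-56609585, plus strand), which stood out in knockout 0, and Ecm1 (chr3:95739570-95739819, minus strand), which was below every control in both. Each reads 5′ to 3′ on the strand of the gene, and capitals mark matches to any of 5 motifs on either strand. The gene positions given further on come from another annotation, GENCODE. Its starts differ for Tgfbi and Prelp, so the ends of those windows lie inside the genes as positioned there.
Prelp: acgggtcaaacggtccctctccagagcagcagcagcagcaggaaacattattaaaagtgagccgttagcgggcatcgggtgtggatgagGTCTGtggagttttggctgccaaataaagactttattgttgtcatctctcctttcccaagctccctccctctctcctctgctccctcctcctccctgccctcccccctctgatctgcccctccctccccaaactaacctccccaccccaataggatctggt
Thbs4: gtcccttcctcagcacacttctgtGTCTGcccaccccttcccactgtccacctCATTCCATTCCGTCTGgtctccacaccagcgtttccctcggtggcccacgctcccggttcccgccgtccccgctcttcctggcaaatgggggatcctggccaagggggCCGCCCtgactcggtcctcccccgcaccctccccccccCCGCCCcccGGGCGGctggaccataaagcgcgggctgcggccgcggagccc
Tgfbi: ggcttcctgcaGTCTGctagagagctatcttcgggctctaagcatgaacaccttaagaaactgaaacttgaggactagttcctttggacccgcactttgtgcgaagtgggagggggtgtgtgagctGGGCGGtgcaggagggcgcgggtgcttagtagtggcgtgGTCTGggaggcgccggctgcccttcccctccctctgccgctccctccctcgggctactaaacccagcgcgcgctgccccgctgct
Ecm1: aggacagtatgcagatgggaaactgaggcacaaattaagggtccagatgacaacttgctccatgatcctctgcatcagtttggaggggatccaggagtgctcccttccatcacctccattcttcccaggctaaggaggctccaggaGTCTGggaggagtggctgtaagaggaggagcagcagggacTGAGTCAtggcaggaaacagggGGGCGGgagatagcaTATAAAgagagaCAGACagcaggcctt
The motifs searched were AP-1 (TGANTCA), TEAD (GGAATG), the SMAD element (CAGAC), the GC box (GGGCGG) and the TATA box (TATAAA). The Prelp window held 1 match, a SMAD element. The Thbs4 window held 2 TEAD matches that share 1 base, 2 SMAD elements and 3 GC boxes. Tgfbi had 2 SMAD elements and 1 GC box. Ecm1 had the only AP-1 match among these 4 windows, beside 2 SMAD elements, 1 GC box and 1 TATA box. SMAD elements were present in 17 of the 28 member promoters, or 60.7%, against 42.1% of all 27025 promoters in the table. The GC box was in 14 of 28, against 32.9% of all promoters, and the TATA box in 6 of 28, against 12.97%. AP-1 and TEAD were each in 3 of 28, against 6.87% and 12.6% of all promoters. These matches describe letters only.

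Total FPKM was 493226 in knockout 0 and 462814 in knockout 1, against 504914 to 507053 in the controls. FPKM divides a gene's fragments by its transcript length and by the size of the library, and the depth behind it is unknown. Across the 12640 tested rows, Pearson's r of log2(FPKM + 1) was 0.960 between the knockout libraries, 0.927 to 0.946 between a knockout and a control, and 0.988 to 0.990 between controls. Pkd1 had 2.72 and 3.60 FPKM in the knockouts, against 3.22, 3.51 and 3.49 FPKM in the controls (log2 difference -0.09, adjusted p = 0.646, limma). These are whole-gene values and do not check the loss of an exon. Xist, which is made from an inactive X chromosome, was at 30.8 and 80.3 FPKM in the knockouts and at no more than 0.0275 FPKM in the controls, and the Y-linked Ddx3y was at 7.30 and 0.00194 FPKM in the knockouts and at 17.8 to 18.6 FPKM in the controls. Sex and genotype therefore cannot be told apart for any value below, and knockout 0 held both Xist and Y-linked RNA at intermediate levels, so its RNA looked mixed in sex. Some abundant genes were listed at exactly 0 in some libraries, but no member was. Gapdh was at 0 in every control and at 1073 and 854 FPKM in the knockouts, so such zeros can follow the groups. Whether the groups were processed alike was not tested.

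Of the 43 genes, 35 had a mean of at least 1 FPKM over the 5 libraries and were tested, and the other 8 were below that level. Mfap5, Thbs2 and Thbs3 passed that filter although their control mean was under 1 FPKM. They could pass only with a higher knockout mean, so their direction was set by the filter. They are included in the counts of tested members below. Prelp and Mfap4 rose in the knockouts, no member fell, and 33 did not pass the threshold (limma on log2(FPKM + 1), adjusted p under 0.05 over all tested rows). Among all tested genes, 2.73% rose and 3.62% fell (345 and 457 genes, but 454 and 266 after each library was rescaled to the same total), so a count of 2 in 35 is near the background. At an unadjusted p under 0.05, 10 members were higher and 3 were lower, against 12.5% and 16.6% of all genes. The fitted difference was positive for 26 of the 35 members (30 after rescaling), against 47.0% of all genes, and its median was 0.37 on the log2 scale, against -0.02 over all tested genes.

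**Figure D1:**
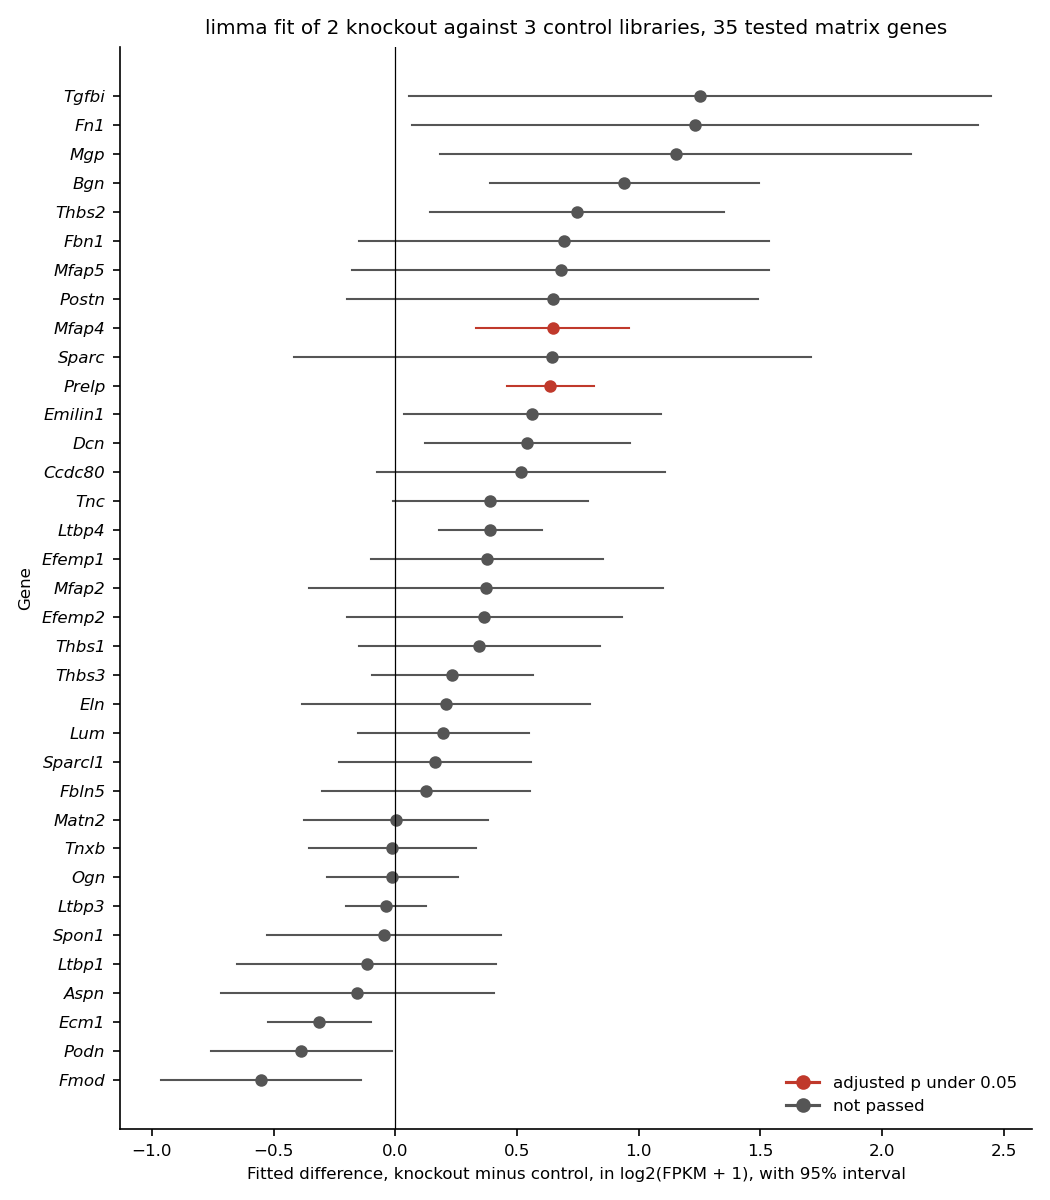
Fitted log2 difference of the 35 tested matrix genes, knockout minus control, in log2(FPKM + 1), with bars for the 95% interval of the limma fit on 2 knockout and 3 control libraries. Prelp and Mfap4, in red, passed the adjusted threshold. Tgfbi, Fn1 and Mgp had the largest estimates, 1.25, 1.23 and 1.15, and long intervals, and without knockout 0 they were at 0.41, 0.44 and 0.51, below Dcn at 0.73. Fmod, Podn and Ecm1 had the lowest.

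The knockout libraries differed from each other in these genes. Knockout 0 was above every control in 23 of the 35 members and below every control in 9, against 34.2% and 43.9% of all genes. Knockout 1 was above every control in 20 and below every control in 3, against 38.4% and 38.5%. At least 2-fold the control mean was reached by 13 members in knockout 0 (5.99% of all genes) and by 0 members in knockout 1 (1.99% of all genes). The median difference of the members from the control mean was 0.55 in knockout 0 and 0.16 in knockout 1, where all genes had -0.04 and 0.00. With knockout 0 alone set against the controls, 15 members were called higher and 2 lower, against 11.5% and 9.09% of all genes. With knockout 1 alone, only Prelp was called higher and 0 members were called lower, against 4.09% and 4.25% of all genes. In each of those fits the lone knockout library is assumed to vary as much as the controls do. How the knockout libraries differ from each other has no replicate and no test.

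By position relative to the 3 controls, the members fell into 7 patterns. In 13 members both knockout libraries were above every control, a pattern shown by 21.9% of all genes. These were Fn1, Tgfbi, Tnc, Emilin1, Ltbp4, Mfap4, Bgn, Dcn, Prelp, Thbs2, Thbs3, Ccdc80 and Mgp. In 10 members knockout 0 was above and knockout 1 within the control range (6.77% of all genes), and these were Postn, elastin, the fibulins Efemp1, Efemp2 and Fbln5, Fbn1, Mfap2, Mfap5, Sparc and Thbs1. In 5 members, Tnxb, Ltbp1, Aspn, Spon1 and Matn2, knockout 0 was below every control and knockout 1 above every control (8.80% of all genes). Fmod, Podn and Ecm1 were below every control in both (26.3% of all genes). Of the last 4, Lum and Sparcl1 were above the controls in knockout 1 only (7.67%), Ltbp3 was below them in knockout 0 only (8.87%), and Ogn was within their range in both (7.52%).

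**Figure D2:**
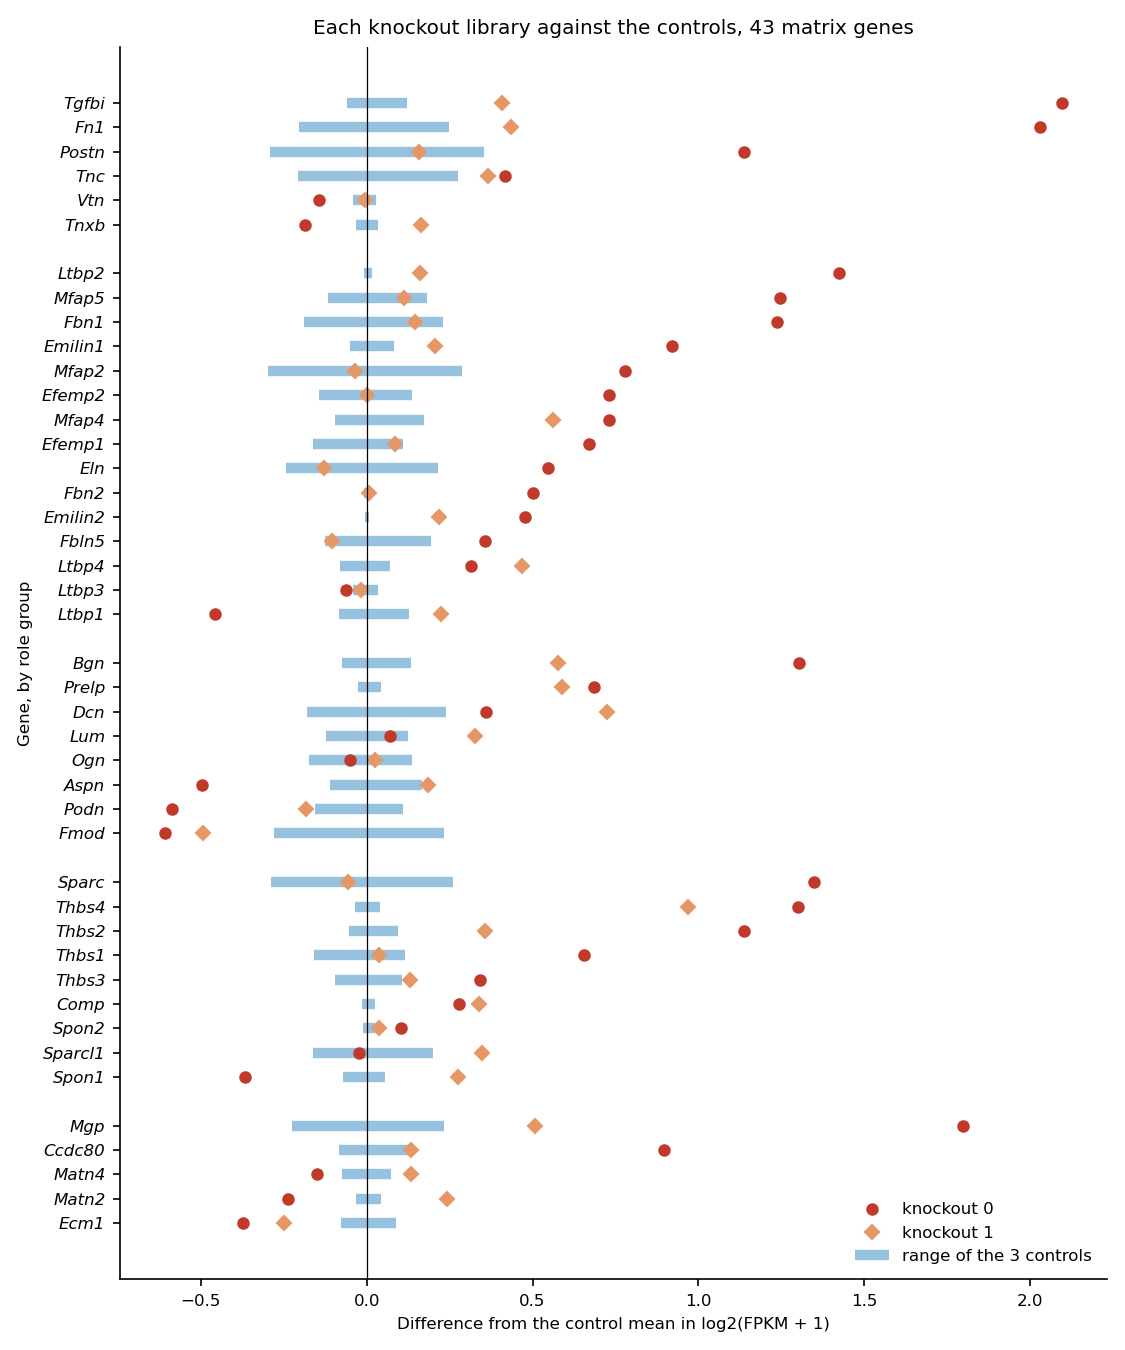
Difference of each knockout library from the control mean in log2(FPKM + 1) for the 43 matrix genes, ordered by role group. Red circles are knockout 0, orange diamonds are knockout 1, and blue bars span the 3 controls. The circles reach 2.10 for Tgfbi and 2.03 for Fn1, whereas no diamond lies beyond 0.97, the value of Thbs4.

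Summed over the 43 genes, FPKM came to 1038 in knockout 0 and 572 in knockout 1, against 433, 534 and 469.7 in the controls. Much of that sum came from the most abundant members. Mgp, Sparc and Bgn together held 69.7% of it in knockout 0 and 54.7% in knockout 1, against 48.9% to 53.8% in the controls. Without them, the other 40 genes summed to 314 and 259 FPKM in the knockouts, against 221, 246 and 224 FPKM in the controls. Both knockout sums were above every control sum in either case.

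Among the 6 adhesive glycoproteins, none of the 5 tested passed the threshold, and their median difference was 1.14 in knockout 0 and 0.37 in knockout 1. Fn1 encodes fibronectin, the glycoprotein on which many other matrix proteins are laid down. Fn1 (chromosome 1, 71585520 to 71653200, minus strand, mm10) had 22.1 and 6.65 FPKM in the knockouts, against 3.91, 5.72 and 4.49 FPKM in the controls. Both knockout libraries were above every control, knockout 0 at 4.70 times the control mean and knockout 1 at 1.41 times. The fitted log2 difference was 1.23 (SE 0.463, adjusted p = 0.156, limma), with 2.03 for knockout 0 alone (adjusted p = 0.00687, limma) and 0.44 for knockout 1 alone (adjusted p = 0.191, limma).

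Tgfbi encodes a secreted adhesion protein named for its induction by TGF-beta. Tgfbi (chromosome 13, 56609523 to 56639562, plus strand), whose promoter is printed above, had 18.9 and 5.16 FPKM in the knockouts, against 3.45, 4.05 and 3.46 FPKM in the controls. Its profile resembled that of Fn1, with knockout 0 at 5.17 times and knockout 1 at 1.41 times the control mean. The fitted log2 difference was 1.25 (SE 0.476, adjusted p = 0.158, limma). Tnc encodes tenascin-C, a glycoprotein of developing and injured tissue. It had 3.21 and 3.07 FPKM in the knockouts, against 1.74, 2.82 and 2.02 FPKM in the controls, so the 2 knockout libraries were close to each other and control 1 was not far below them (log2 difference 0.39, SE 0.159, adjusted p = 0.179, limma).

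Postn, which encodes periostin, had 5.14 and 2.11 FPKM in the knockouts, against 1.28, 2.57 and 1.67 FPKM in the controls, and only knockout 0 lay outside the control range. Tnxb, which encodes tenascin-X, a partner of collagen fibrils, had 1.14 and 1.72 FPKM in the knockouts, against 1.43, 1.38 and 1.49 FPKM in the controls. Knockout 0 was the lowest library and knockout 1 the highest.

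Of the 15 elastic fibre and microfibril genes, 12 were tested and 1, Mfap4, rose. The median difference of the tested genes was 0.70 in knockout 0 and 0.10 in knockout 1. Mfap4 encodes a microfibril-associated glycoprotein that binds elastin and collagen. Mfap4 (chromosome 11, 61485431 to 61488900, plus strand) had 3.56 and 3.06 FPKM in the knockouts, against 1.60, 2.10 and 1.57 FPKM in the controls. Both knockout libraries were above every control, at 2.02 and 1.74 times the control mean. The fitted log2 difference was 0.65 (SE 0.125, 95% interval 0.33 to 0.96, adjusted p = 0.0471, limma). That call was narrowly past the threshold, and it was lost with no filter on low values (adjusted p = 0.0807), with median-of-ratios scaling (0.0507) and with quantile normalization (0.0658). It was also lost without control 0, 1 or 2 (0.178, 0.0812 and 0.211) and without knockout 0 (0.0725). In the annotation 4.63% of the exon bases of Mfap4 overlap exons of Mapk7, which had 4.87 and 4.48 FPKM in the knockouts, against 2.85, 3.53 and 3.44 FPKM in the controls. The strandedness of the libraries is not given in the sources used here, so reads in that overlap cannot be assigned to one gene.

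Ltbp4 encodes a latent TGF-beta binding protein needed for elastic fibre assembly. It had 12.4 and 14.0 FPKM in the knockouts, against 9.89, 9.24 and 10.3 FPKM in the controls, with the groups apart (log2 difference 0.39, SE 0.0842, 95% interval 0.18 to 0.60, adjusted p = 0.0582, limma). With only genes at a mean of at least 5 FPKM tested, Ltbp4 passed the threshold (adjusted p = 0.0469, limma), and its adjusted p ran from 0.0469 to 0.305 over the alternatives. Of its relatives, Ltbp2 is given with the low genes, and in Ltbp1 and Ltbp3 the groups overlapped. Ltbp1 had 1.95 and 3.73 FPKM in the knockouts, against 2.82, 3.42 and 2.93 FPKM in the controls, with knockout 0 lowest and knockout 1 highest. Ltbp3 had 7.65 and 7.93 FPKM in the knockouts, against 7.77, 8.09 and 8.24 FPKM in the controls, and varied little in any library.

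Emilin1, an elastin-associated glycoprotein, had 14.8 and 8.63 FPKM in the knockouts, against 7.06, 7.83 and 7.18 FPKM in the controls. Both were above every control, knockout 0 at 2.01 times the control mean (fitted log2 difference 0.56, SE 0.210, adjusted p = 0.155, limma). Fbn1 encodes fibrillin-1, the main microfibril protein, and had 4.79 and 1.72 FPKM in the knockouts, against 1.15, 1.88 and 1.38 FPKM in the controls. Only knockout 0 was outside the control range, at 3.25 times the control mean (log2 difference 0.69, SE 0.336, adjusted p = 0.236, limma), and 20.1% of the exon bases of Fbn1 overlap the gene model Gm9913. Mfap5, another microfibril glycoprotein, had 3.16 and 0.896 FPKM in the knockouts, against 0.617, 0.986 and 0.675 FPKM in the controls, again with only knockout 0 outside the control range (log2 difference 0.68, SE 0.341, adjusted p = 0.249, limma).

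The elastin gene and the genes of fibulin-4 and fibulin-5 were outside the control range in knockout 0 only. Eln, the elastin gene, had 7.63 and 4.40 FPKM in the knockouts, against 3.99, 5.85 and 5.03 FPKM in the controls. Efemp2, which encodes fibulin-4 and is needed to cross-link elastin, had 9.32 and 5.23 FPKM in the knockouts, against 4.63, 5.84 and 5.25 FPKM in the controls. Fbln5, encoding fibulin-5, which brings elastin to the microfibril, had 20.1 and 14.3 FPKM in the knockouts, against 14.1, 17.8 and 14.7 FPKM in the controls. In all 3 genes knockout 1 lay inside the control range and knockout 0 above it. Efemp1, encoding fibulin-3, had 24.9 and 16.2 FPKM in the knockouts, against 16.5, 15.9 and 13.5 FPKM in the controls, and Mfap2, a microfibril protein, had 4.23 and 1.97 FPKM, against 1.48, 2.72 and 2.07 FPKM in the controls. They showed the same placement, and none of the 5 passed the threshold (adjusted p 0.250 to 0.666, limma).

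All 8 small leucine-rich proteoglycans were tested. One, Prelp, rose, and the fitted difference was positive for 4 and negative for 4. Their median difference was 0.01 in knockout 0 and 0.26 in knockout 1. Prelp encodes a proteoglycan that binds heparan sulphate and collagen and is found where basement membrane meets connective tissue. Prelp (chromosome 1, 133910304 to 133921414, minus strand) had 8.66 and 8.04 FPKM in the knockouts, against 5.20, 4.91 and 4.94 FPKM in the controls. The knockout libraries lay close together, at 1.73 and 1.60 times the control mean, and the groups did not overlap. Its fitted log2 difference was 0.64 (SE 0.0712, 95% interval 0.46 to 0.82, adjusted p = 0.0193, limma). It was also called with knockout 0 alone (adjusted p = 0.00827) and with knockout 1 alone (adjusted p = 0.0266). The call was lost when a control was left out (adjusted p = 0.115 without control 0, 0.0755 without control 1 and 0.162 without control 2), while the log2 difference stayed between 0.58 and 0.76 in every alternative tried. Exons of an antisense gene model, Gm15851, overlap 9.68% of its exon bases.

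Bgn encodes biglycan, an abundant X-linked proteoglycan that also signals through Toll-like receptors. Bgn (chromosome X, 73483602 to 73495933, plus strand) had 134 and 80.5 FPKM in the knockouts, against 50.9, 58.8 and 51.4 FPKM in the controls. The groups were apart, with knockout 0 at 2.49 and knockout 1 at 1.50 times the control mean. The fitted log2 difference was 0.94 (SE 0.220, 95% interval 0.39 to 1.49, adjusted p = 0.0673, limma), and after rescaling to a common library sum it passed (adjusted p = 0.0465, in a range of 0.00579 to 0.308 over the alternatives). Dcn encodes decorin, the closest relative of biglycan, and had 27.0 and 35.1 FPKM in the knockouts, against 18.3, 24.8 and 20.0 FPKM in the controls. Here knockout 1 was the higher of the 2 knockout libraries and both were above the controls (log2 difference 0.54, SE 0.168, adjusted p = 0.111, limma).

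Fmod and Podn lay on the other side. Fmod encodes fibromodulin, which binds collagen fibrils, and had 2.70 and 3.0 FPKM in the knockouts, against 5.62, 3.64 and 4.83 FPKM in the controls. Both knockout libraries were below every control, and the controls themselves were spread (log2 difference -0.55, SE 0.163, 95% interval -0.96 to -0.14, adjusted p = 0.103, limma). Podn, encoding podocan, had 5.96 and 8.22 FPKM in the knockouts, against 10.3, 8.39 and 9.79 FPKM in the controls (adjusted p = 0.162, limma), and knockout 1 was only just below control 1. Aspn encodes asporin, which binds TGF-beta, and had 1.05 and 2.28 FPKM in the knockouts, against 1.68, 2.24 and 1.78 FPKM in the controls. Knockout 0 was the lowest library and knockout 1 the highest by a small margin (log2 difference -0.16, SE 0.224, adjusted p = 0.687, limma). Lum, the lumican gene, had 1.20 and 1.63 FPKM in the knockouts, against 0.928, 1.29 and 1.10 FPKM in the controls. Ogn, the osteoglycin gene, had 10.5 and 11.1 FPKM, against 11.2, 12.1 and 9.54 FPKM in the controls, and was the only tested member with both knockout libraries within the control range.

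**Figure D3:**
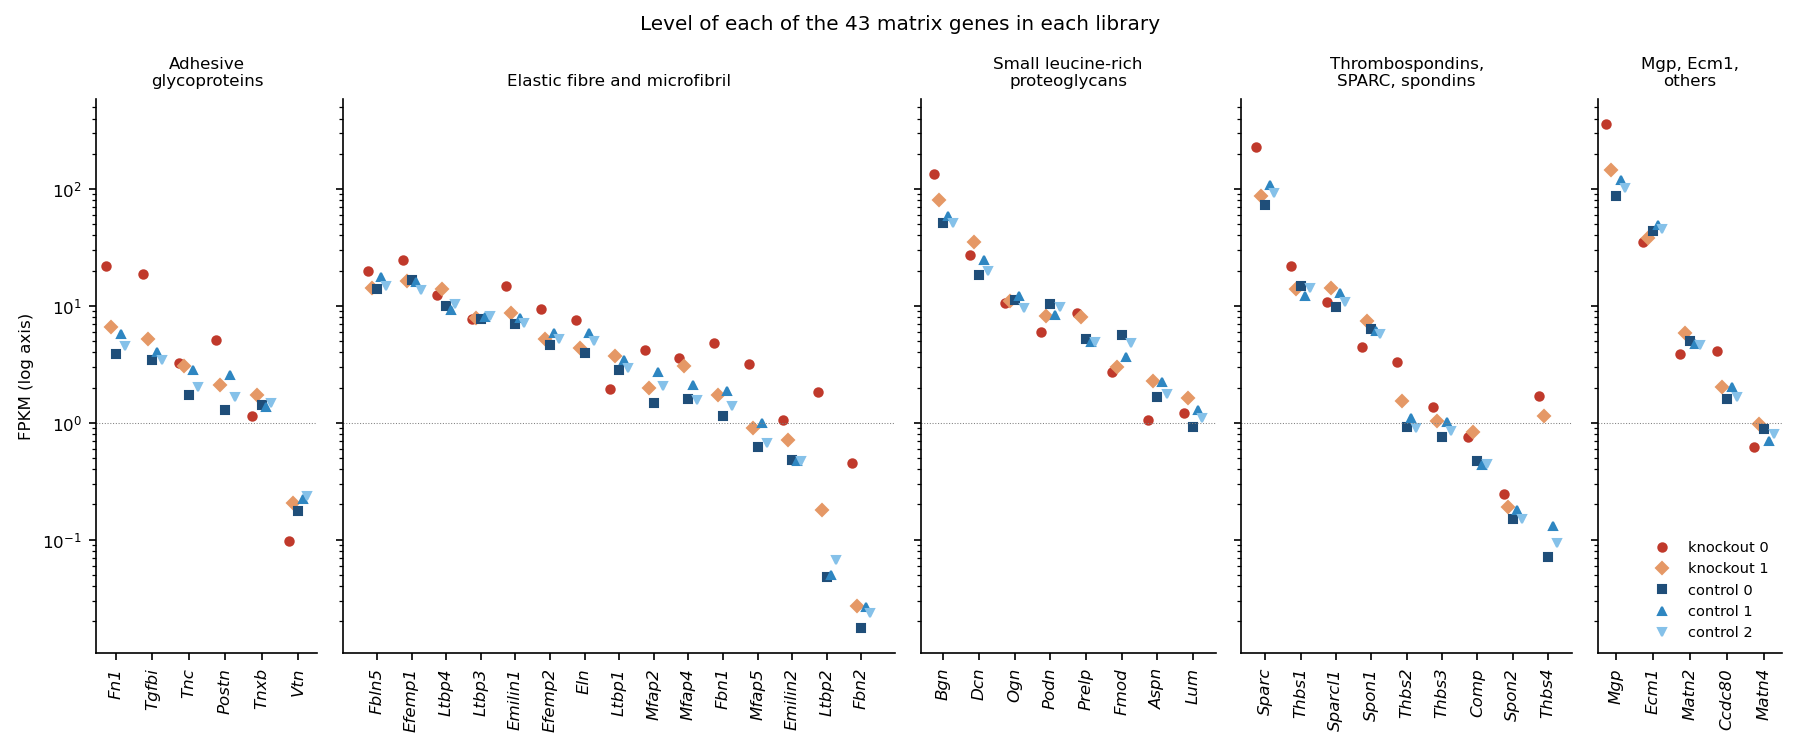
FPKM of each of the 43 matrix genes in each library, on a log axis, in panels by role group. Red circles and orange diamonds are knockout 0 and knockout 1, and blue symbols are the 3 controls. Mgp, Sparc and Bgn are the most abundant, and Thbs4, at 1.70 and 1.15 FPKM in the knockouts and no more than 0.130 FPKM in the controls, shows the widest gap in which both knockout libraries stand clear of the controls.

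Among the 9 thrombospondins, SPARC and spondin genes, none of the 6 tested passed the threshold, with a median difference of 0.50 in knockout 0 and 0.20 in knockout 1. Thbs2 encodes a thrombospondin that restrains vessel growth. It had 3.33 and 1.52 FPKM in the knockouts, against 0.913, 1.10 and 0.896 FPKM in the controls, with both above every control, at 3.43 and 1.57 times the control mean (log2 difference 0.75, SE 0.241, adjusted p = 0.119, limma). Thbs1 encodes thrombospondin-1, which can activate latent TGF-beta, and had 22.1 and 14.0 FPKM in the knockouts, against 14.9, 12.1 and 14.1 FPKM in the controls. Only knockout 0 stood apart (log2 difference 0.35, SE 0.197, adjusted p = 0.300, limma). Thbs3 had 1.37 and 1.04 FPKM in the knockouts, against 0.750, 1.01 and 0.856 FPKM in the controls, so knockout 1 was barely above control 1 (log2 difference 0.23, SE 0.132, adjusted p = 0.294, limma). Of its exon bases 6.59% overlap the far more abundant Mtx1. Mtx1 had 33.4 and 31.2 FPKM in the knockouts, against 35.7 to 36.3 FPKM in the controls. Reads in that overlap cannot be assigned to either gene.

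Sparc encodes SPARC, or osteonectin, a collagen-binding protein of remodelling tissue. Sparc (chromosome 11, 55394500 to 55423183, minus strand) had 231 and 86.7 FPKM in the knockouts, against 73.6, 108 and 92.0 FPKM in the controls. Knockout 0 was at 2.53 times the control mean and knockout 1 at 0.950 times, within the control range. The fitted log2 difference was 0.65 (SE 0.423, 95% interval -0.41 to 1.71, adjusted p = 0.361, limma). Its relative Sparcl1 had the reverse placement, with 10.9 and 14.3 FPKM in the knockouts, against 9.76, 12.8 and 10.7 FPKM in the controls, so that only knockout 1 was above the controls. Spon1, which encodes a spondin, had 4.45 and 7.49 FPKM in the knockouts, against 6.30, 6.10 and 5.69 FPKM in the controls, with the knockout libraries on opposite sides.

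The remaining group held the matrilins, Mgp, Ecm1 and Ccdc80, of which 4 were tested and none passed. Mgp encodes matrix Gla protein, an inhibitor of calcification. Mgp (chromosome 6, 136872435 to 136875823, minus strand) had 359 and 146 FPKM in the knockouts, against 87.5, 121 and 102 FPKM in the controls. Both knockout libraries were above every control, at 3.47 and 1.41 times the control mean (log2 difference 1.15, SE 0.385, 95% interval 0.19 to 2.12, adjusted p = 0.127, limma). Ecm1 encodes extracellular matrix protein 1, a binding partner of several matrix proteins. Ecm1 (chromosome 3, 95734147 to 95739569, minus strand) had 35.2 and 38.4 FPKM in the knockouts, against 43.4, 48.9 and 45.5 FPKM in the controls. Both knockout libraries were below every control, and the libraries within a group were close (log2 difference -0.31, SE 0.0847, 95% interval -0.52 to -0.10, adjusted p = 0.0889, limma). Ccdc80 had 4.12 and 2.02 FPKM in the knockouts, against 1.60, 2.01 and 1.66 FPKM in the controls, with knockout 1 barely above control 1 (log2 difference 0.51, SE 0.236, adjusted p = 0.215, limma). Matn2, the gene of matrilin-2, had 3.90 and 5.84 FPKM in the knockouts, against 4.96, 4.73 and 4.65 FPKM in the controls, with a fitted difference of 0.00.

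The 8 members below the filter were read without a test in the comparison above, and 6 of them were above every control in both knockout libraries, against 23.0% of the 7073 rows below that level and not at 0 throughout. Thbs4 encodes thrombospondin-4, best known from tendon and muscle. Thbs4 (chromosome 13, 92751590 to 92794818, minus strand) had 1.70 and 1.15 FPKM in the knockouts, against 0.0707, 0.130 and 0.0938 FPKM in the controls. Those values were 17.4 and 11.7 times the control mean, and the level was low in every library. Comp, which encodes the closely related cartilage oligomeric matrix protein, had 0.757 and 0.830 FPKM in the knockouts, against 0.472, 0.432 and 0.440 FPKM in the controls, or 1.69 and 1.85 times the control mean. With no filter on low values, Thbs4 (adjusted p = 0.0305, limma) and Comp (adjusted p = 0.0372, limma) rose, as did Prelp (adjusted p = 0.0417, limma), against 1.27% of the 19713 genes in that fit.

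Ltbp2 and Fbn2 were far higher in knockout 0 than in any other library. Ltbp2, a microfibril protein that does not bind latent TGF-beta, had 1.83 and 0.178 FPKM in the knockouts, against 0.0479, 0.0497 and 0.0670 FPKM in the controls, which put knockout 0 at 33.4 and knockout 1 at 3.25 times the control mean. Exons of an antisense gene model, D030025P21Rik, overlap 9.34% of the exon bases of Ltbp2. That gene model had 0.0836 and 0.0172 FPKM in the knockouts, against 0.00613, 0.00281 and 0.00684 FPKM in the controls. Fbn2, the fibrillin of developing tissue, had 0.448 and 0.0269 FPKM in the knockouts, against 0.0175, 0.0264 and 0.0234 FPKM in the controls, so knockout 1 exceeded control 1 by very little. Emilin2 had 1.05 and 0.715 FPKM in the knockouts, against 0.481, 0.469 and 0.473 FPKM in the controls. The remaining low genes were Spon2, with 0.246 and 0.191 FPKM in the knockouts and 0.150 to 0.179 FPKM in the controls, Vtn, the vitronectin gene, with 0.0965 and 0.207 FPKM against 0.176 to 0.235 FPKM, and Matn4, with 0.618 and 0.968 FPKM against 0.703 to 0.888 FPKM.

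The controls also differed among themselves in these genes. Control 1 was the highest control in 25 of the 35 tested members, against 36.8% of all genes, and control 0 the lowest in 23, against 38.2% of all genes. The median difference of the members from the control mean was 0.13 in control 1, -0.08 in control 0 and -0.04 in control 2. The knockout 1 median of 0.16 was near that of control 1, whereas that of knockout 0 was 0.55. Each control is itself part of the control mean, which makes its own difference smaller. The control and knockout medians are therefore not on equal terms.

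Genes that work with these proteins were read from the same fit, in which 2.73% of all genes rose and 3.62% fell. Of 16 enzymes of matrix cross-linking and assembly, 15 were tested, and Bmp1, which encodes a procollagen proteinase that also cleaves Ltbp and lysyl oxidase precursors, rose. It had 7.44 and 6.89 FPKM in the knockouts, against 2.48, 3.65 and 3.12 FPKM in the controls (log2 difference 1.01, SE 0.137, adjusted p = 0.0260, limma). The list's median was 0.41, and its median difference from the control mean was 0.49 in knockout 0 and 0.13 in knockout 1. The other 14 enzymes did not pass. Among them Lox, the gene of lysyl oxidase, which cross-links elastin and collagen, had 6.33 and 1.69 FPKM in the knockouts, against 1.57, 1.73 and 1.52 FPKM in the controls.

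Of 30 other non-collagen matrix genes, 14 were tested, 2 rose and none fell, against 2.73% and 3.62% of all genes. Their median was 0.34. The median difference from the control mean was 0.47 in knockout 0 and 0.24 in knockout 1. Fbln7, a further fibulin, had 5.44 and 5.80 FPKM in the knockouts, against 3.64, 3.74 and 3.61 FPKM in the controls (log2 difference 0.50, adjusted p = 0.0278, limma). Aebp1, a collagen-binding protein, had 24.6 and 29.0 FPKM in the knockouts, against 14.98, 17.9 and 16.6 FPKM in the controls (log2 difference 0.67, adjusted p = 0.0369, limma). In both, the knockout libraries were clear of the controls, as in Prelp. Their log2 differences from the control mean were close in Fbln7, at 0.47 and 0.54, and further apart in Aebp1, at 0.55 and 0.78.

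All 14 genes of TGF-beta ligands, receptors and classic targets were tested, and Lrrc32, which holds latent TGF-beta at the cell surface, rose. Lrrc32 had 7.11 and 5.52 FPKM in the knockouts, against 3.92, 3.86 and 3.82 FPKM in the controls (log2 difference 0.58, adjusted p = 0.0461, limma). The list's median was 0.34, and its median difference from the control mean was 0.49 in knockout 0 and 0.18 in knockout 1. Of those that did not pass, Tgfb1 had 14.4 and 7.14 FPKM in the knockouts, against 5.96, 6.19 and 6.02 FPKM in the controls. Of 8 collagen genes, 5 for fibrillar collagens and 3 for collagen VI, none passed (limma), and none had an unadjusted p under 0.05. Their median difference was 0.70 in knockout 0 and 0.07 in knockout 1. For the 5 fibrillar ones it was 1.26 in knockout 0 and 0.11 in knockout 1, and Col1a1 had 41.2 and 10.2 FPKM in the knockouts, against 6.80, 13.4 and 10.6 FPKM in the controls.

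Markers of the cell types in a kidney were read beside the matrix genes, and most did not pass the threshold. In whole tissue, a change in the number of cells of one type and a change in RNA per cell cannot be told apart. The summed FPKM of 7 fibroblast markers was 42.7 and 41.4 in the knockouts, against 29.0 to 36.8 in the controls, and control 1 was the highest control in all 6 that were tested. Cd34 held the largest part, at 18.3 and 16.5 FPKM in the knockouts, against 11.6 to 14.8 FPKM in the controls. Col14a1 had 9.33 and 5.44 FPKM in the knockouts, against 4.17 to 5.21 FPKM in the controls. Dpt had 3.93 and 2.55 FPKM, against 1.33 to 2.53 FPKM in the controls. These 3 of the 6 tested markers were above every control in both knockout libraries, against 21.9% of all genes. The other 3 were not, and 0 were below every control in both. Pdgfra had 4.05 and 7.24 FPKM in the knockouts, against 5.32, 5.61 and 5.33 FPKM in the controls. Clec3b had 1.46 and 2.71 FPKM, against 1.54, 2.77 and 2.40 FPKM in the controls. Knockout 0 was the lowest library for both genes. The sum of 9 pericyte, smooth muscle and myofibroblast markers was 145 and 83.7 in the knockouts, against 62.6 to 83.3 in the controls. In that list Cspg4, a pericyte proteoglycan, rose (5.18 and 5.25 FPKM in the knockouts, against 2.96, 3.40 and 3.52 FPKM in the controls, adjusted p = 0.0369, limma). Acta2, the smooth muscle actin of myofibroblasts, had 45.0 and 17.7 FPKM in the knockouts, against 14.7, 21.8 and 16.2 FPKM in the controls. Both knockout libraries were above every control in 4 of the 9, Cspg4, Pdgfrb, Notch3 and Des, against 21.9% of all genes. In 0 of the 9 were both below every control. The fitted difference was positive for 7, against 47.0% of all genes, and negative for 2, Myh11 and Cnn1. Myh11, a smooth muscle myosin, had 3.43 and 5.04 FPKM in the knockouts, against 4.54, 6.90 and 5.83 FPKM in the controls, and Cnn1, encoding calponin, had 1.12 and 0.983 FPKM, against 1.10, 2.17 and 1.39 FPKM in the controls.

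Markers of macrophages and of injured tubules set knockout 0 apart more widely than the matrix genes did. The sum of 8 macrophage markers was 379 and 130 in the knockouts, against 89.2 to 99.4 in the controls. All 7 that were tested were above every control in both knockout libraries, against 21.9% of all genes. The sum of 5 injured tubule markers was 309 and 12.1 in the knockouts, against 9.15 to 11.9 in the controls. Havcr1, the kidney injury marker KIM-1, had 137 and 0.593 FPKM in the knockouts, against 1.12, 0.975 and 0.718 FPKM in the controls. The list was not uniform in knockout 1, where Havcr1 was below every control and Lcn2 within their range. Vcam1, Krt20 and Sox9 were above every control there, at 5.42, 0.808 and 0.373 FPKM. The highest control values of these genes were 3.04, 0.725 and 0.301 FPKM. None of the macrophage or injured tubule markers passed the threshold in the fit of both knockout libraries. The sum of 8 endothelial markers varied less, at 144 and 145 FPKM in the knockouts and 129 to 136 FPKM in the controls.

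Markers of the labelled tissue were present in every library. Podocyte markers summed to 92.5 and 138 FPKM in the knockouts, against 101 to 129 FPKM in the controls. Collecting duct markers summed to 345 and 482 FPKM in the knockouts, against 414 to 484 FPKM in the controls. The proximal tubule list came to 479 and 441 FPKM in the knockouts, against 516 to 533 FPKM in the controls. Its genes did not move together. Slc22a6 was below every control, at 246 and 165 FPKM in the knockouts, against 325, 268 and 287 FPKM in the controls. Cubn was above every control, at 50.9 and 61.1 FPKM, against 39.1, 42.1 and 38.2 FPKM in the controls. In Slc5a2 and Slc5a12 the groups overlapped. Lrp2 and Slc34a1, which define the proximal tubule, were listed at 0 in all 5 libraries. Other lists covered tissues next to the tubules or outside the kidney. All 4 urothelial markers were below every control in both knockout libraries, against 26.3% of all genes. They summed to 4.20 and 9.32 FPKM, against 14.7 to 21.5 FPKM in the controls, though none passed the threshold. Adipocyte markers summed to 0.295 and 1.74 FPKM in the knockouts, against 3.77 to 6.36 FPKM in the controls. Of the hepatocyte list Alb rose and Serpina1a fell, and the sum was 60.2 and 57.6 FPKM in the knockouts, against 106 to 118 FPKM in the controls. Adrenal markers summed to no more than 1.73 FPKM in any library. The part of these cell types in the matrix values was not tested.

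**Figure D4:**
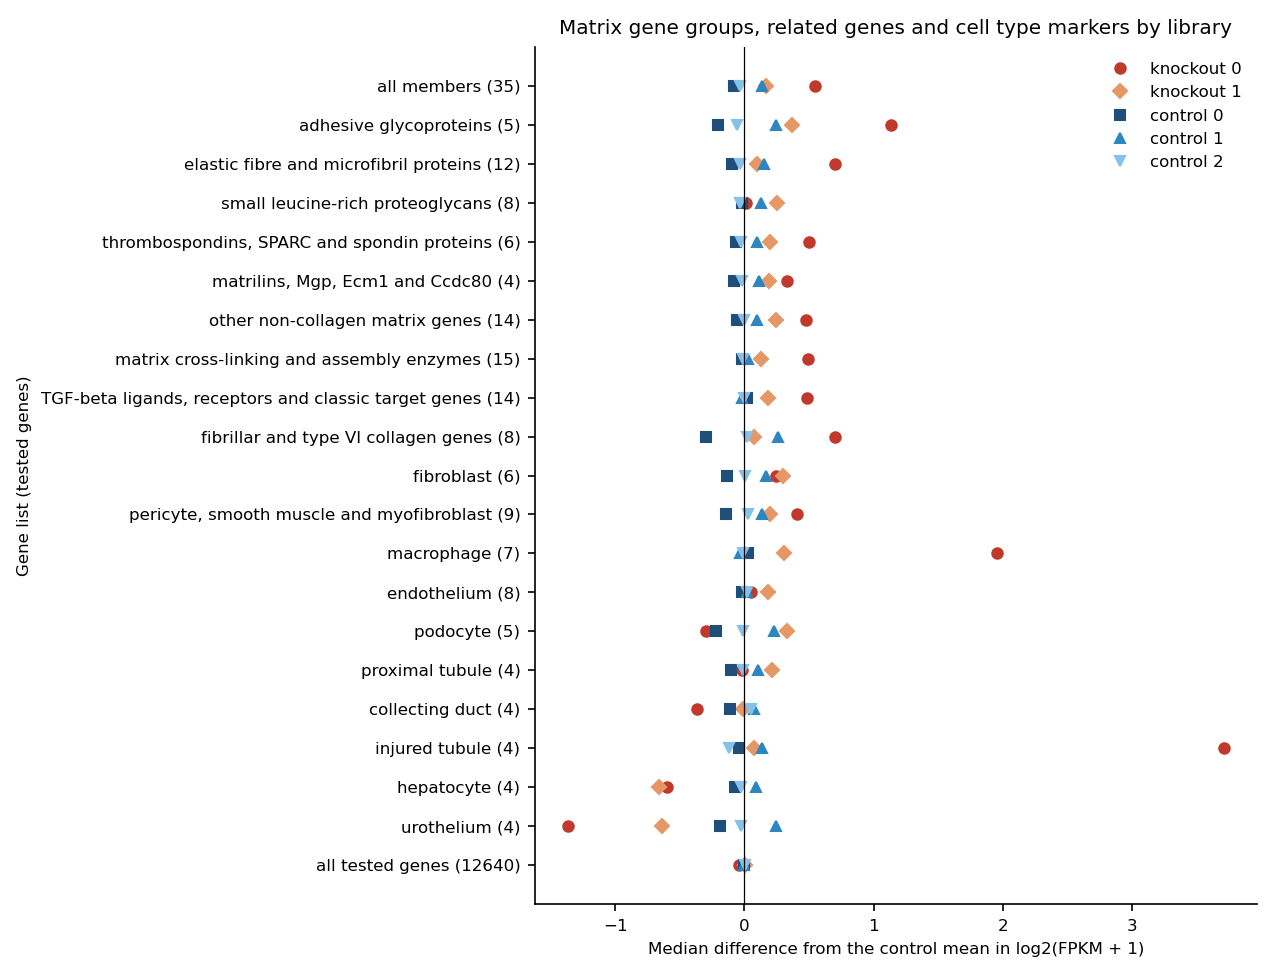
Median difference of the tested genes of each list from the control mean, in log2(FPKM + 1), by library. Knockout 0, the red circle, lies at 0.55 for the matrix genes, 1.95 for macrophage markers and 3.72 for injured tubule markers, whereas knockout 1, the orange diamond, lies at 0.16, 0.31 and 0.07. The bottom line shows all tested genes.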

How the data were processed

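RNA from whole kidney was sequenced in 5 libraries, and the genotype label gave the groups. Libraries were made with an Illumina mRNA-seq kit from 1 µg of TRIzol-extracted RNA, per the labels' protocols. The deposited values are FPKM computed by the authors. Per the submitters' processing notes, bcl2fastq and build mm10 were used. Aligner, annotation and strandedness: not given in the sources used here. Every value column belonged to a library (0 unmapped).

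The members, the role groups and the gene lists were chosen with earlier results of these data known. Rows with a mean of at least 1 FPKM were tested as log2(FPKM + 1) by limma 3.58.1 in R 4.3.3. The test was two-sided, from lmFit and eBayes with a trend of variance on level. Benjamini-Hochberg adjustment covered the 12640 rows tested, and calls needed an adjusted p under 0.05. Changes of low genes are understated on this scale. Values with 1 knockout library use the same fit. Exact permutation of 2 against 3 libraries reaches no p under 0.1, so it was not used. FPKM show no depth. The most frequent ratio of low values to control 0 gave relative depths of 0.569 for knockout 0 and 1.34 for knockout 1, with 0.670 and 1.09 for the other controls, each from under 13% of the low rows, so they are rough. Python 3.11.15, numpy 2.4.6, pandas 2.3.3 and matplotlib 3.10.9 handled tables and plots.

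In full were given the members past the threshold and, in each role group, the 3 with the smallest p and the 2 with the largest difference between the knockout libraries. From lists of related genes those past the threshold were named. Dcn, Tgfb1, Lox, Col1a1 and the low members were described after their values were seen. The lists were other non-collagen matrix, cross-linking enzymes, TGF-beta, fibrillar and type VI collagens, and markers of 12 cell types. Adgre1 and Tf were not analysed here. Positions and exon overlaps came from GENCODE M21 (GRCm38), promoters from RefSeq (GRCm38.p6). Same-numbered libraries were not taken as pairs.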

Additional observations from a re-analysis of the deposited data

How the results depend on the processing

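Under 13 alternatives, the count of members past the threshold was 2 in the comparison reported and with a pseudocount of 0.1, and 2 when rows listed at 0 were left out. It was 3 with no filter (Comp, Prelp and Thbs4), 3 after rescaling to TPM (Bgn added), 2 with a mean of at least 5 FPKM (Ltbp4 and Prelp), and 1 with median-of-ratios scaling and with quantile normalization (Prelp in both). The replicate number as a block gave 0 (limma, 6 of 35 at an unadjusted p under 0.05, against 14.7% of all genes). Leaving out a library gave 0 to 17 members and a median of 0.16 to 0.55. The count of 17 came without knockout 1, the count of 1 without knockout 0, and the count of 0 without any 1 control (limma; at an unadjusted p under 0.05 there were 6, 11 and 5 of 35 without control 0, 1 and 2, against 18.8%, 23.0% and 16.9% of all genes). The count of all genes past the threshold was 802, against 482 with no filter, 28 with the replicate block and 36 to 2599 with a library left out. Rescaling to TPM gave 454 higher and 266 lower genes, against 345 and 457, and moved the median of all genes from -0.02 to 0.06. The median of the members was 0.37, and between 0.29 and 0.47 under the alternatives that kept all libraries.

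Same-numbered libraries correlated at 0.0863 and 0.00236 in their deviations from the group means. The deviations of the knockout libraries from their shared mean are mirror images of each other, so these values cannot decide whether the libraries were paired. The comparison reported did not read the numbers as pairs. The block took the adjusted p of Prelp to 0.219 and that of Mfap4 to 0.315.

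The direction held in 23 of the 35 tested members under every alternative in which they were tested, and 15 were not tested at a mean of at least 5 FPKM. Matn2 turned from 0.00 to -0.0012 with a pseudocount of 0.1, -0.00067 with median-of-ratios scaling, -0.081 with quantile normalization and -0.014 with the block. After rescaling to TPM, Ltbp3 was at 0.036, Ogn at 0.066, Spon1 at 0.023 and Tnxb at 0.045, and with the block Tnxb was at 0.0053. With a library left out, the log2 difference ran from -0.50 to 0.18 in Aspn, -0.13 to 0.55 in Eln, -0.11 to 0.36 in Fbln5, -0.46 to 0.22 in Ltbp1, -0.24 to 0.24 in Matn2, -0.036 to 0.78 in Mfap2, -0.098 to 0.056 in Ogn, -0.056 to 1.35 in Sparc, -0.023 to 0.35 in Sparcl1, -0.37 to 0.27 in Spon1 and -0.19 to 0.16 in Tnxb. Of these, 9 turned without knockout 0. The cause was not tested. FPKM without counts limit what can be said of the low members.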
